A study of Rattus norvegicus with 48 samples.

Results

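Genes of the integrated stress response, 8 in number, were read in rat kidney: Atf4, Atf5, Ddit3, Nupr1, Trib3, Asns, Psat1 and Ddit4. They are 8 of the 7997 genes that the exon arrays measured, taken as every probe set that the platform annotation assigns to one of these symbols. The 8 genes have 55 probe sets in all, and the log2 intensities of a gene's probe sets were joined into 1 value per array by median polish. The members were chosen by their values over the 12 groups of these same arrays, so their levels and differences are given as a description with their errors and without p-values.

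The arrays came from kidneys of male rats of strains FL, F, LF and L at days 0, 7 and 10, with 4 arrays in each of the 12 groups, 48 in all. Rats at days 7 and 10 had received 100 mg/kg/day of indole-3-carbinol by gavage for that many days. Indole-3-carbinol comes from cabbage plants and yields ligands of the aryl hydrocarbon receptor. Rats at day 0 had been gavaged with vegetable oil, the carrier. The labels give an age of 12 weeks and 8 rats per group, and leave unstated how many rats each array represents, so the errors measure the spread between arrays. All groups shared gavage, and no group received oil at day 7 or day 10, so that the compound and the days of gavage cannot be told apart. The labels do not expand the strain names. As background not in the labels, the compound switches on a renin transgene driven by the Cyp1a1 promoter in these rats, and FL and LF are reciprocal congenic strains of F and L. Whole kidney was used, so fewer cells of a type and less RNA per cell cannot be told apart.

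The integrated stress response starts when kinases that sense unfolded protein, missing amino acids, heme shortage or viral RNA phosphorylate the translation factor eIF2. General translation then slows while the mRNA of the transcription factor ATF4 is translated more, so that much of the control of ATF4 lies outside its mRNA level. ATF4 switches on genes that supply amino acids, and with CHOP, the product of Ddit3, genes that decide recovery or cell death. Its DNA element combines a C/EBP part with an ATF part. In kidney the pathway is known from tubule cells under endoplasmic reticulum stress, ischemia and nutrient shortage.

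Promoter windows of 3 members are shown because Nupr1 and Trib3 hold a match to the core of that element and Asns, the gene with the widest gap between FL and the other strains at day 0, does not. The windows are from RefSeq on GRCr8 and run from 250 bases before the annotated start to 50 after it, 5′ to 3′ on the gene's strand. Capitals mark the motif TGATGNAA or its reverse, TTNCATCA. The windows are chr1:190645852-190646151 for Nupr1, chr3:161275484-161275783 for Trib3 and chr4:36769366-36769665 for Asns, each on the minus strand.
Nupr1: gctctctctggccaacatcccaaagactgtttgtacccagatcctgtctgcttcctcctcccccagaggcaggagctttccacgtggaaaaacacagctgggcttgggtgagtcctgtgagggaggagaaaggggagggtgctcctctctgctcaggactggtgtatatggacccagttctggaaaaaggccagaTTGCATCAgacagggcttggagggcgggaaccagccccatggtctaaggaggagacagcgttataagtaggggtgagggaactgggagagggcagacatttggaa
Trib3: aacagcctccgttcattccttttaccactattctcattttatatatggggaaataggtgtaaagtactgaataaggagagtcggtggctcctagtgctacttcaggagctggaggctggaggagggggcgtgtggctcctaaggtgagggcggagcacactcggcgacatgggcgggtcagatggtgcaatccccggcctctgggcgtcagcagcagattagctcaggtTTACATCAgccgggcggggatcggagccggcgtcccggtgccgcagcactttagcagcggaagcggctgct
Asns: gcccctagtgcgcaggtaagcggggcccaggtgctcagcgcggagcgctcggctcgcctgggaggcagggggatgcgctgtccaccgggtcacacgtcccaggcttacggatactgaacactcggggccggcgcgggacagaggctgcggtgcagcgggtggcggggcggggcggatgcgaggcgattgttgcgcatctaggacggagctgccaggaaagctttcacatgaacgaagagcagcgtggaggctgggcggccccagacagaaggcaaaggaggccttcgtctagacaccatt
The match in Nupr1 begins 55 bases before the start and that in Trib3 begins 21 bases before it. All 8 members have a RefSeq window, and the other 6 have no match in it. Of all 33469 promoter windows of this length 3.98% hold a match on either strand. Of the 97 other stress response genes described below 84 have a window, and 10 of these (11.9%) hold a match. A match is a string of letters and not a binding site, and its absence says only that these letters are not in this window. The members with a match did not share a pattern, since Nupr1 had the widest range of group means of the 8 genes and Trib3 stayed near its mean in every group.

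Asns and Atf5 were high in FL kidneys at day 0. Against strain F, Nupr1 was high and Ddit4 was low there, while both overlapped L and LF. The other 4 members overlapped between FL and F at day 0. How many of all genes separate in this way was not counted, so lack of overlap is description only, here and below. Over the 12 groups the means of Nupr1 spanned 1.90 log2 units (3.74-fold), those of Asns 1.09 (2.13-fold), Ddit4 1.02 (2.03-fold) and Atf5 0.79 (1.72-fold). For Psat1 the span was 0.57, for Atf4 0.39, for Trib3 0.38 and for Ddit3 0.36. The median span over all 7997 genes was 0.40, and 99.5% of genes had a smaller span than Nupr1, 97.2% than Asns, 96.5% than Ddit4, 91.3% than Atf5 and 76.7% than Psat1. Atf4, Trib3 and Ddit3 lay near the middle of all genes, with 46.7%, 45.9% and 40.8% of genes below them.

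**Figure D1:**
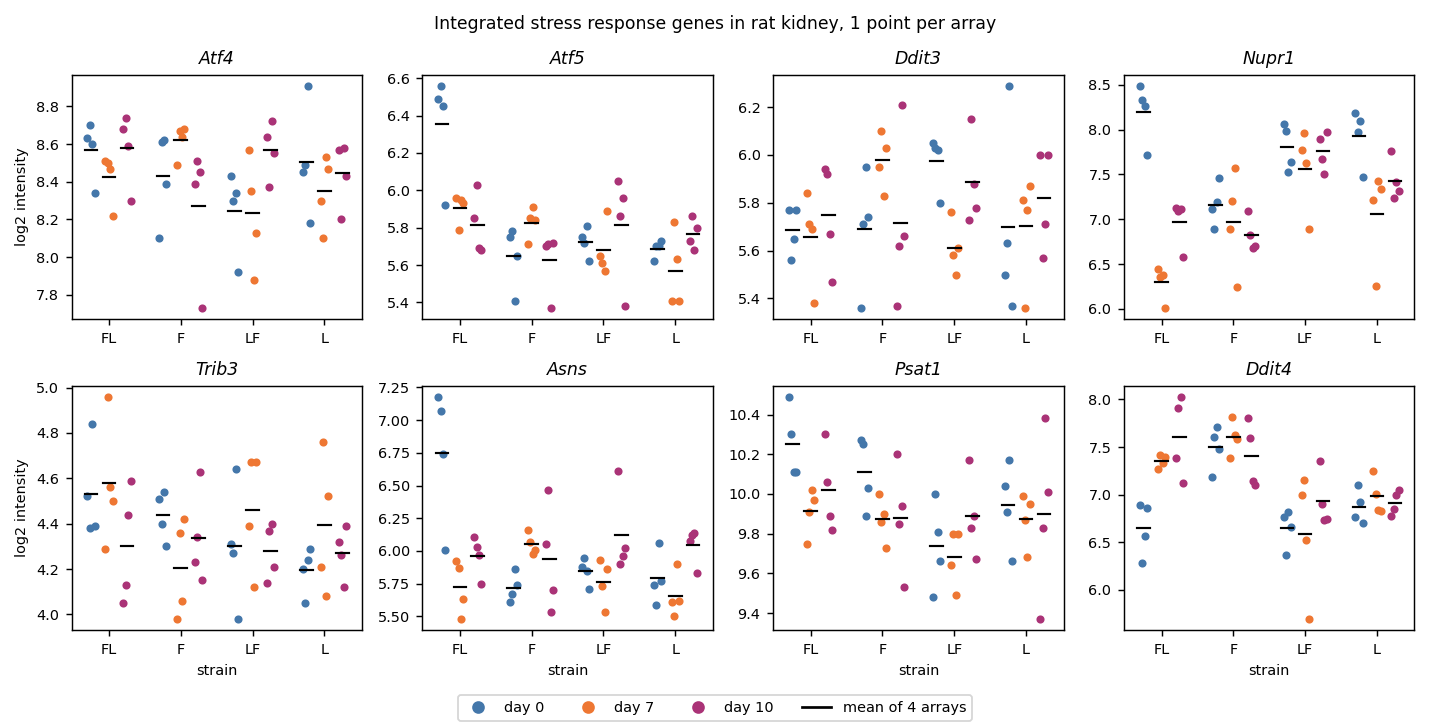
Log2 intensity (y axis) of the 8 genes by strain (x axis) and day, with 1 point per array and a bar at the mean of 4 arrays. In FL, the 4 day 0 arrays of Nupr1 lie between 7.72 and 8.49 and those of Asns between 6.01 and 7.18, above all FL day 7 arrays, while Ddit3, Trib3 and Atf4 show groups that overlap widely. The y axes differ between panels.

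Among the transcription factors, Atf4 itself was level. Its group means ran from 8.23 in LF at day 7 to 8.62 in F at day 7, with a pooled SD within groups of 0.22. In FL at day 0 the arrays read 8.63, 8.70, 8.60 and 8.34, against 8.10, 8.61, 8.62 and 8.39 in F at day 0. The groups overlap, and the difference was 0.14 ± 0.16 (log2, SE). In FL the difference from day 0 was -0.14 ± 0.16 at day 7 and 0.01 ± 0.16 at day 10. The widest difference from day 0 within a strain was that of LF at day 10, 0.32 ± 0.16, with overlapping arrays.

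Atf5, a relative of Atf4 whose mRNA is also translated more when eIF2 is phosphorylated, had 1 group apart from the others. FL kidneys at day 0 read 6.49, 6.56, 6.45 and 5.92, against 5.75, 5.78, 5.41 and 5.65 in F kidneys at day 0. Every FL array was above every F array, and replicate 4 was the lowest of the FL arrays. The difference was 0.70 ± 0.12 (log2, SE), or 1.63-fold, and all 10 probe sets of the gene had the same sign, from 0.30 to 1.64. In FL at day 7 the values were 5.96, 5.79, 5.95 and 5.93, and at day 10 they were 5.85, 6.03, 5.69 and 5.68. These days overlap FL day 0 only through replicate 4 of day 0, and differed from day 0 by -0.45 ± 0.12 and -0.54 ± 0.12. The other strains stayed within 5.37 and 6.05 on every array. Their differences from day 0 lay between -0.12 and 0.18.

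Ddit3, which encodes CHOP, the factor tied to cell death under lasting stress, was level in FL. FL arrays at day 0 read 5.77, 5.56, 5.65 and 5.77, against 5.36, 5.71, 5.95 and 5.74 in F at day 0, a difference of -0.00 ± 0.16. Its clearest separation lay in LF, where day 7 arrays read 5.76, 5.58, 5.50 and 5.61, against 6.05, 6.03, 6.02 and 5.80 at day 0. The LF day 7 arrays were all below the LF day 0 arrays, with a difference of -0.36 ± 0.16. Set against LF at day 0, a comparison added after the values were seen, all FL day 0 arrays were lower too, by a log2 difference of -0.29 ± 0.16.

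Nupr1, a small chromatin protein of stressed cells that acts downstream of ATF4, had the largest differences. FL kidneys read 8.49, 8.33, 8.26 and 7.72 at day 0, then 6.44, 6.36, 6.38 and 6.01 at day 7 and 7.12, 7.09, 7.11 and 6.58 at day 10. The 3 days did not overlap in FL. The difference from day 0 was -1.90 ± 0.23 at day 7, 3.74-fold lower, and -1.23 ± 0.23 at day 10, 2.34-fold lower. F kidneys at day 0 read 7.11, 6.89, 7.19 and 7.46, so that all FL arrays of that day were above them by a mean of 1.04 ± 0.23. FL at day 0 was not apart from L at day 0, where the arrays read 8.19, 7.97, 8.10 and 7.47, nor from LF with 8.06, 7.98, 7.53 and 7.64. At day 0 the strain that stood apart in Nupr1 was thus F, with F minus L at -0.77 ± 0.23 and all F arrays below all L arrays. L kidneys at day 7 read 7.21, 6.26, 7.43 and 7.34, all below the L arrays of day 0, and differed by -0.87 ± 0.23. At day 10 L read 7.76, 7.24, 7.41 and 7.31, which overlaps day 0, with a difference of -0.50 ± 0.23. In F and LF the days overlapped, with differences from day 0 of -0.19 ± 0.23 and -0.34 ± 0.23 in F and -0.24 ± 0.23 and -0.04 ± 0.23 in LF, at days 7 and 10 in turn.

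Trib3, a pseudokinase that ATF4 and CHOP induce and that feeds back on them, was dim and level. Single arrays ran from 3.98 to 4.96, and its mean was in the lowest 33.3% of genes. FL at day 0 read 4.52, 4.38, 4.84 and 4.39, against 4.51, 4.40, 4.54 and 4.30 in F at day 0, a difference of 0.10 ± 0.15. FL day 0 and F day 0 overlap each other, and both lie above L day 0, where the arrays read 4.20, 4.05, 4.24 and 4.29. F minus L was 0.24 ± 0.15 and FL minus L, a comparison added after the values were seen, was 0.34 ± 0.15.

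Among the enzymes of amino acid supply, Asns, which makes asparagine and is a classic ATF4 target, was highest in the same group as Atf5. FL kidneys at day 0 read 7.18, 7.07, 6.74 and 6.01, against 5.61, 5.67, 5.86 and 5.74 in F kidneys at day 0. All FL arrays were above all F arrays, with replicate 4 again the lowest, and the mean difference was 1.03 ± 0.17, or 2.04-fold. FL at day 7 read 5.92, 5.87, 5.48 and 5.63, all below the FL arrays of day 0, with a difference of -1.02 ± 0.17, or 2.03-fold lower. At day 10 FL read 6.11, 6.03, 5.97 and 5.75, which overlaps day 0 through replicate 4 of day 0, and the difference was -0.79 ± 0.17. Without that array the 3 differences were 1.28, -1.27 and -1.03. F lay the other way, with 6.16, 6.07, 5.98 and 6.01 at day 7, all above its day 0 arrays, and a difference of 0.34 ± 0.17. In L and LF the differences from day 0 were -0.13 ± 0.17 and -0.08 ± 0.17 at day 7 and 0.26 ± 0.17 and 0.28 ± 0.17 at day 10, with overlapping arrays.

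Comparisons added after the values were seen place FL day 0 against the other strains. Asns was higher in FL than in L by 0.96 ± 0.17, with 1 L array (6.06) above the lowest FL array, and higher than in LF by 0.90 ± 0.17 without overlap. Atf5 was higher in FL than in L by 0.67 ± 0.12 and than in LF by 0.63 ± 0.12, both without overlap. At the treated days FL no longer stood above F in Asns, with FL minus F at -0.33 ± 0.17 at day 7, where all FL arrays were below all F arrays, and 0.03 ± 0.17 at day 10. For Atf5 these differences were 0.08 ± 0.12 and 0.19 ± 0.12, with overlap.

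Psat1, which makes phosphoserine on the way to serine, was bright and overlapped between FL and F at day 0. FL at day 0 read 10.49, 10.30, 10.11 and 10.11, against 10.27, 10.25, 9.89 and 10.03 in F at day 0, with a difference of 0.14 ± 0.15. FL at day 7 read 9.75, 9.91, 10.02 and 9.97, all below FL day 0, with a difference of -0.34 ± 0.15. At day 10 the difference in FL was -0.23 ± 0.15, with overlap. In a comparison added after the values were seen, FL at day 0 was above LF at day 0 on every array, by 0.51 ± 0.15.

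Ddit4, also called REDD1, restrains the growth kinase complex mTORC1 and responds to glucocorticoids and hypoxia besides ATF4. In FL it ran against Asns, Atf5 and Nupr1. FL kidneys at day 0 read 6.89, 6.28, 6.56 and 6.86, against 7.18, 7.61, 7.71 and 7.48 in F kidneys at day 0, without overlap and with a difference of -0.85 ± 0.21, or 1.80-fold lower. FL read 7.27, 7.42, 7.33 and 7.39 at day 7 and 7.38, 7.91, 8.03 and 7.12 at day 10, all above FL day 0. The differences from day 0 were 0.70 ± 0.21 (1.63-fold) and 0.96 ± 0.21 (1.95-fold). FL at day 0 was level with LF, at 6.76, 6.36, 6.82 and 6.66, and overlapped L, at 6.76, 7.10, 6.92 and 6.70. The strain apart at day 0 was again F, with F minus L at 0.62 ± 0.21 and all F arrays above all L arrays. In F, L and LF the differences from day 0 lay between -0.09 and 0.28.

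**Figure D2:**
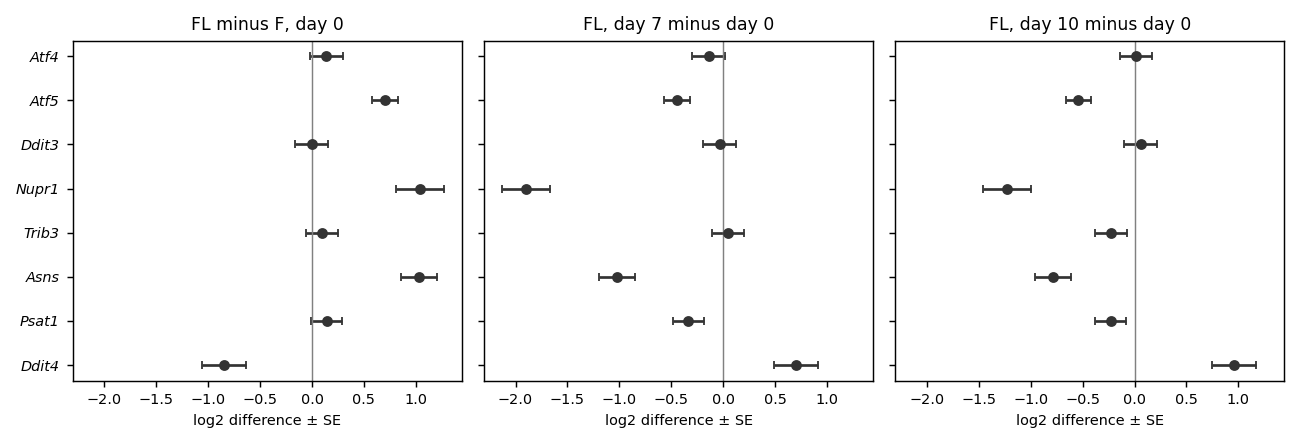
Log2 differences (x axis, points with limma SE) of the 8 genes (y axis) for FL minus F at day 0 and for FL at days 7 and 10 against FL at day 0. Asns and Nupr1 sit near 1 in the first panel, and Nupr1 reaches -1.90 and Ddit4 0.70 at day 7; the 3 panels share the FL day 0 arrays.

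The 3 comparisons FL minus F at day 0, FL day 7 minus day 0 and FL day 10 minus day 0 use the same 4 FL day 0 arrays, so a shift of those arrays moves all of them. The values of single probe sets, which read different stretches of a transcript in the same RNA, ran together within these genes. For FL minus F at day 0 all 13 probe sets of Asns, all 10 of Atf5 and all 4 of Nupr1 were above 0, and all 4 of Ddit4 were below 0. All 10 of Psat1 and all 4 of Atf4 were above 0 too, at gene differences of 0.14, so 1 sign over probe sets was not limited to the genes with large differences. For FL day 7 minus day 0, 12 of 13 probe sets of Asns, all 10 of Atf5, all 4 of Nupr1 and all 10 of Psat1 were below 0, and all 4 of Ddit4 were above 0. Ddit3 had 3 probe sets above 0 and 2 below in the first comparison, and Trib3 had 2 above and 3 below.

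**Figure D3:**
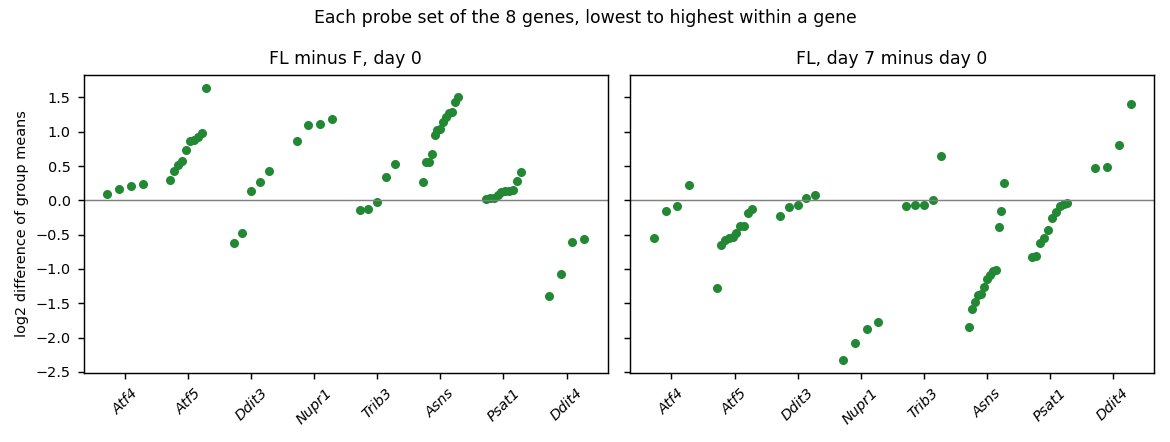
Log2 difference of group means (y axis) for each of the 55 probe sets, grouped by gene (x axis) and ordered by value within a gene, for FL minus F at day 0 and FL day 7 minus day 0. The Nupr1 probe sets lie between 0.87 and 1.18 in the first panel and between -2.32 and -1.77 in the second, and those of Ddit4 have the opposite sign in each.

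Counts of members past the limma threshold (Benjamini-Hochberg adjusted p under 0.05 over all 7997 genes) stand beside the share of all genes past it, and nothing is read from them because the same contrasts chose the members. For FL minus F at day 0, 2 members (Asns and Atf5, both higher) were among the 6 genes past it, 0.0750% of all genes. For FL day 7 minus day 0 they were Asns and Nupr1, both lower, against 0.150% of all genes, and for FL day 10 minus day 0 Nupr1 alone, lower, against 0.0250%. As a mean over the 4 strains, Nupr1 was the 1 member past the threshold at day 7 (log2 difference -0.80 ± 0.12, against 4.98% of all genes) and at day 10 (-0.53 ± 0.12, against 2.30%). Without strain FL its day 7 difference was -0.43. In the test of whether the day responses differ among strains, Asns and Nupr1 were past the threshold, against 0.200% of all genes. Without replicate 2 that test called 0 genes and FL minus F at day 0 called 3, and without replicate 3 FL day 7 minus day 0 called 4, against 16, 6 and 12. In the comparisons added after the values were seen, Asns and Atf5 were past it, both higher, for FL minus L at day 0 (1.41% of all genes) and for FL minus LF at day 0 (2.53%). For FL minus F at day 7 (0.738% of all genes) and at day 10 (0.0250%), and in each comparison listed next, 0 members were past it with limma. All genes past it there came to 0.0750% for day 10 minus day 7, 0.688% and 0.375% for days 7 and 10 in F, 2.44% and 1.04% for days 7 and 10 in LF, 1.35% for F minus L and 0.250% for LF minus L at day 0. In L the share was 0 of 7997 genes (0%) at both days, where limma gave 340 and 336 genes at an unadjusted p under 0.05.

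Other genes of the pathway, and genes near it, were read through 8 lists. They cover amino acid supply, tRNA synthetases, ATF4 and CHOP effectors, the eIF2 switch, endoplasmic reticulum chaperones and mitochondrial proteostasis. The others hold mTORC1 brakes and genes of the responses to glucocorticoids and hypoxia, signals that Ddit4 responds to as well. Of the 182 symbols of the 8 lists outside the members (older and current names counted apart) 97 genes were measured. For FL minus F at day 0, where Asns and Atf5 were highest, limma called 0 of the 97, against 0.0750% of all genes. At an unadjusted p under 0.05, 2 were higher and 1 lower, against 331 of all 7997 genes. Their median difference was -0.02, against -0.04 over all genes. The amino acid supply list of 18 genes had 9 above 0 and 9 below, with a median of -0.00. Among them Slc6a9, a glycine transporter, averaged 6.68 ± 0.43 in FL and 6.28 ± 0.25 in F, and Slc7a1, which carries cationic amino acids, 5.74 ± 0.28 in FL and 5.53 ± 0.10 in F (log2, SD, n = 4 arrays each). With so small a share called over all genes, 0 calls among the 97 say little about these neighbours of Asns.

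For FL day 7 minus day 0 limma called 0 of the 97 genes, against 0.150% of all genes, and 1 with the replicate number as a block. At an unadjusted p under 0.05, 14 were lower and 0 higher, against 491 of all 7997 genes. Of the 97, 84.5% were below 0, against 60.1% of all genes, and their median was -0.13, against -0.04. The 7 tRNA synthetases, which load amino acids onto tRNA, were all below 0, with a median of -0.25. Array medians were lower at day 7 as well, with a mean of 6.20 in FL at day 7, the lowest of the 12 groups, against 6.32 in FL at day 0, and their part in the shift of the lists was not tested. All 10 genes of the eIF2 switch (median -0.16) and 14 of 15 chaperone genes (median -0.20) were below 0 too. Amino acid supply had 15 of 18 below 0 and ATF4 and CHOP effectors 16 of 20, with medians of -0.10 and -0.11. The shift was not particular to FL. In LF at day 7 all 7 tRNA synthetases (median -0.29), all 10 eIF2 switch genes (-0.25) and all 15 chaperone genes (-0.26) were below 0. In F at day 7, 6 of 7, 3 of 10 and 3 of 15 of these were below 0. In L they were 6 of 7, 7 of 10 and 11 of 15. Herpud1, which helps clear misfolded protein from the endoplasmic reticulum, came nearest to a call. It averaged 8.73 ± 0.15 in FL at day 7, against 9.23 ± 0.11 in FL at day 0, a difference of -0.51 ± 0.12 (SE, limma adjusted p = 0.0536). Slc7a1 (-0.39), Gpt2, an alanine transaminase (-0.42), and Slc6a9 (-0.47) followed, none past the threshold. At day 10 in FL, limma called 0, with 5 higher and 3 lower at an unadjusted p under 0.05, against 328 of all genes. Of the 97, 45.4% were below 0, against 44.6% of all genes.

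**Figure D4:**
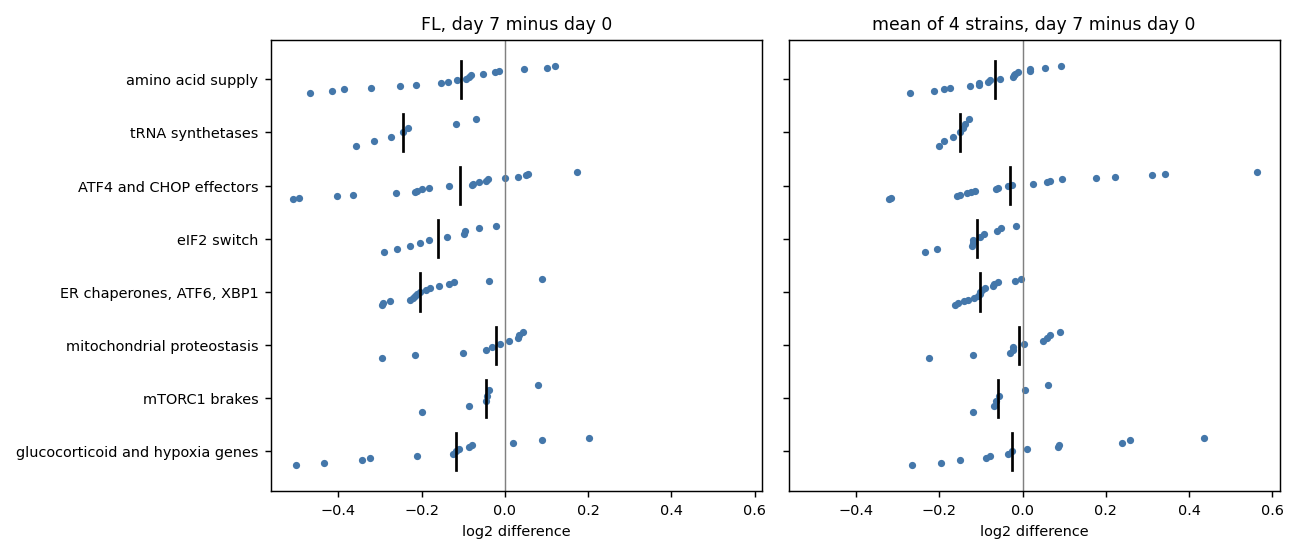
Log2 differences (x axis) of the genes in the 8 lists (y axis), members left out, for FL day 7 minus day 0 and for the mean of 4 strains, with 1 point per gene and a bar at each list's median. The tRNA synthetases all lie below 0 in both panels, with medians of -0.25 and -0.15, and the ATF4 and CHOP effectors lie on both sides.

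As a mean over the 4 strains, 4 of the 97 were called at day 7, 2 in each direction, against 4.98% of all genes. At day 10, 4 were called, all higher, against 2.30% of all genes. With the replicate number as a block the counts among the 97 were 15 and 7. Cdkn1a, which encodes the cell cycle inhibitor p21, rose by 0.56 ± 0.14 at day 7 (limma adjusted p = 0.0133) and 0.91 ± 0.14 at day 10 (adjusted p = 4.29e-05), read by only 2 probe sets. Ndrg1, induced by hypoxia and stress, rose by 0.34 ± 0.05 (adjusted p = 1.73e-05) and 0.24 ± 0.05 (adjusted p = 0.00333). At day 7 Stc2, a secreted glycoprotein of stressed cells, fell by 0.32 ± 0.09 (adjusted p = 0.0277), and Nr3c1, the glucocorticoid receptor, fell by 0.27 ± 0.07 (adjusted p = 0.0158). At day 10 Atf3, a stress transcription factor, rose by 0.50 ± 0.12 (adjusted p = 0.0161), and Fkbp5, a chaperone that glucocorticoids induce, rose by 0.71 ± 0.19 (adjusted p = 0.0257). Of the 4 genes that rose at day 10, 3 are on the list of ATF4 and CHOP effectors. Fkbp5 is on that of glucocorticoid and hypoxia genes. At day 10 limma called 0 of 18 amino acid supply genes and 0 of 7 tRNA synthetases. With 2.30% of all genes called, 0 calls in lists so short say little. Without strain LF the Ndrg1 differences were 0.11 and 0.09 and no longer called, and with LF left out limma called 0 of the 97 at day 7 and 1 at day 10. Other calls were lost without a strain, in part at differences as large as over all strains. They were lost by Cdkn1a at day 7 without F (0.49), L (0.59) or LF (0.40), by Nr3c1 without F (-0.30) or LF (-0.14) and by Stc2 without F (-0.35), L (-0.34), FL (-0.26) or LF (-0.33). At day 10 they were lost by Fkbp5 without F (0.62), L (0.78) or LF (0.66) and by Atf3 without F (0.56) or LF (0.41). Calls were gained by Atf3 at day 7 (0.31 over all strains) after quantile normalization (0.40), with the mean of probe sets (0.50) and without FL (0.50), and by Fkbp5 at day 7 (0.44) without FL (0.75). Stc2 at day 10 (-0.28) gained one with the mean of probe sets (-0.28), without FL day 0 replicate 3 (-0.34) and without replicate 3 (-0.38). Further calls were lost at day 7 by Cdkn1a without replicate 1 (0.464) or 2 (0.546), by Nr3c1 without replicate 2 (-0.251) or 3 (-0.241) and with the mean of probe sets (-0.23), and by Stc2 without replicates 1, 2 or 4, FL day 0 replicate 1 or 4, F day 0 replicate 4 or L day 7 replicate 4 (-0.378 to -0.245) and after quantile normalization (-0.231). They were lost at day 10 by Ndrg1 without replicate 4 (0.181), Atf3 without replicates 1, 3 or 4 (0.38 to 0.479) and Fkbp5 without any 1 replicate number, FL day 10 replicate 2 or 3 or L day 10 replicate 1 (0.64 to 0.767). Between day 10 and day 7 limma called 0, with 21 higher and 3 lower at an unadjusted p under 0.05, against 1051 of all 7997 genes. Of the 97, 16.5% were below 0 in this contrast, against 37% of all genes.

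All calls among the 97 for a day against day 0 in a single strain came from LF. There were 4 at day 7 (11 with the replicate block), against 2.44% of all genes, and 3 at day 10, against 1.04%. Ndrg1 averaged 11.22 ± 0.15 in LF at day 0, 12.25 ± 0.19 at day 7 and 11.89 ± 0.08 at day 10 (log2, SD, n = 4 arrays each). In LF it was lower than in L at day 0, where it averaged 12.06 ± 0.17, by a log2 difference of -0.85 ± 0.10 (limma adjusted p = 1.64e-06). The day responses of Ndrg1 differed among strains (limma F test, adjusted p = 0.000563). Cdkn1a rose in LF by 1.06 ± 0.29 and 1.15 ± 0.29 at days 7 and 10 (adjusted p = 0.0322 for each). Also in LF, Nr3c1 fell by 0.66 ± 0.14 (adjusted p = 0.0046) and Pdia4, a chaperone of disulfide bonds, fell by 0.48 ± 0.12 (adjusted p = 0.0194) at day 7. Sgk1, a kinase that corticosteroids induce, rose by 1.21 ± 0.27 at day 10 (adjusted p = 0.0117). In F, L and FL limma called 0 of the 97 at either day. At an unadjusted p under 0.05 F had 10 higher and 0 lower at day 7, against 542 of all genes. F at day 10 had 2 higher and 5 lower, against 713. L had 0 higher and 2 lower at day 7, against 340, and 5 higher and 2 lower at day 10, against 336. LF had 8 higher and 25 lower at day 7, against 1540, and 9 higher and 2 lower at day 10, against 534. The 8 members had 0 calls in LF, with medians of -0.06 and 0.12 at days 7 and 10.

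The agreement of the members within groups uses deviations of each array from its group mean, which the group pattern does not enter. Over 48 arrays the median Pearson correlation of the 28 pairs of members was 0.0969, against 0.054 over all pairs of genes, with 21 pairs above 0. Atf4 and Ddit3 went together most (r = 0.559, Spearman rho = 0.512, and r = 0.599 without the 2 arrays farthest from the Atf4 median). Atf4 and Asns followed (r = 0.505, rho = 0.551, and 0.469 without such arrays), and then Atf5 and Asns (r = 0.45, rho = 0.23). The last pair leaned on the FL day 0 arrays, with r = 0.241 without them, while Atf4 and Ddit3 gave 0.595. Nupr1 and Trib3 had the lowest value (r = -0.373). The arrays also shared their overall brightness. Deviations of Psat1 and Atf4 followed the array median at r = 0.59 and 0.573, those of Atf5 at 0.0974, and after regression on the array median the pair of Atf4 and Ddit3 was at 0.495, the pair of Atf4 and Asns at 0.342 and the median of the 28 pairs at 0.0355. Points of 1 replicate number share the start of their array file names, read as 1 array run, and these correlations carry no test.

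**Figure D5:**
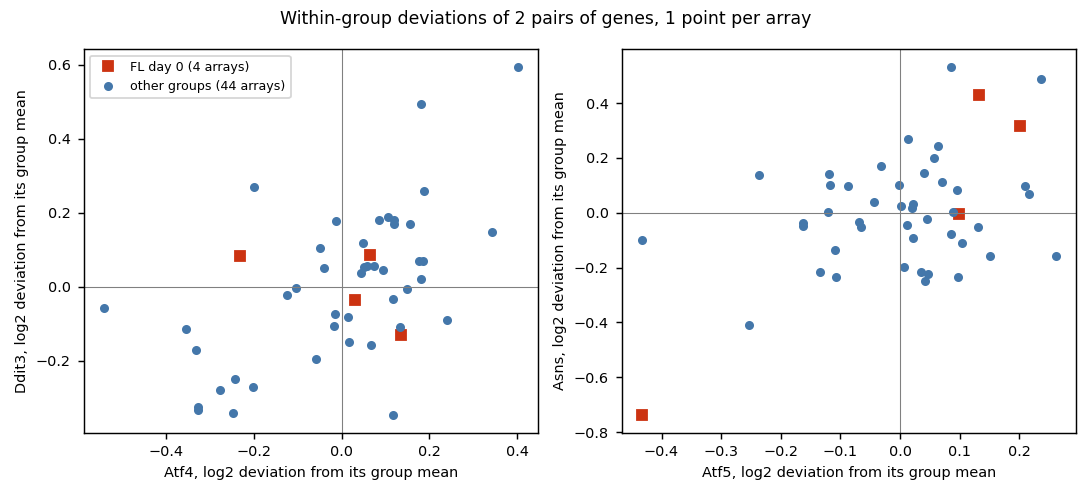
Deviation of each of 48 arrays from its group mean (log2) for Ddit3 against Atf4 and for Asns against Atf5, with the 4 FL day 0 arrays as squares. The first pair has r = 0.559 over arrays of all groups; in the second (r = 0.45), FL day 0 replicate 4 lies far to the lower left.

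The genes outside the members with the highest mean r to the 8 of them over these deviations were Nme7 (0.387), Cdc37l1 (0.374) and Prpsap1 (0.371), with the 10th, Wdr7, at 0.363. By member, the closest gene to Atf4 was Nit1 (r = 0.757), to Atf5 Hsd11b2 (0.486), to Ddit3 Sdhc (0.711), to Nupr1 Slc20a1 (0.682), to Trib3 Prlhr (0.568), to Asns Tlr6 (0.658), to Psat1 Pias2 (0.812) and to Ddit4 Apbb3 (0.654). Atf5 thus had the weakest closest neighbour of the 8.

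Array medians of the log2 values ran from 6.03 to 6.61, and those of FL day 0 (6.16 to 6.47) fell inside the range of the other groups. Kidney identity was plain, with the 10 measured proximal tubule markers averaging 10.98 to 11.35 on every array. Intensities have no true zero, so no marker can be called absent. Markers of several cell types were a little lower in FL than in F at day 0, where the contrast of Asns and Atf5 lies. Of all genes, 62.4% were below 0 in this contrast. All 8 measured collecting duct markers were below 0 (median -0.25, mean levels of 7.83 to 8.46 in FL against 8.29 to 8.38 in F), as were 8 of 9 loop and distal tubule markers (median -0.19, 9.30 to 9.59 against 9.60 to 9.68). For macrophage markers it was 5 of 6 (median -0.16, 5.93 to 6.33 against 6.05 to 6.51). Below 0 too were 9 of 10 proximal tubule (median -0.06), 3 of 3 red cell and 2 of 2 endothelial markers. It was 3 of 5 for podocyte and for fibroblast, pericyte and muscle markers, and 2 of 5 for T and B cell markers. In this contrast limma called 0 markers of any list, with 1 collecting duct and 2 loop and distal markers at an unadjusted p under 0.05. In FL at day 7 against day 0, all 9 loop and distal markers (median -0.22, 9.08 to 9.35 against 9.30 to 9.59) and 6 of 8 collecting duct markers (median -0.27, 7.81 to 8.08 against 7.83 to 8.46) were below 0, with 0 of these 2 lists called and 3 and 2 markers at an unadjusted p under 0.05. The cell type marker called in that contrast was Tagln, a smooth muscle protein, which rose by 0.69 ± 0.15 (limma adjusted p = 0.0284). Injury genes did not differ by a call between FL and F at day 0 (0 of 10 with limma, 0 at an unadjusted p under 0.05), with mean levels of 5.84 to 6.12 in FL and 5.90 to 6.06 in F. In FL at day 7 they read 5.87 to 6.26, with 0 of 10 called and 0 at an unadjusted p under 0.05. Over the 4 strains 5 of 10 injury genes rose at day 7 and 7 at day 10, Havcr1, the tubule injury molecule, by 1.52 ± 0.24 and 2.49 ± 0.24 (limma adjusted p = 3e-05 and 2.04e-09). By strain at day 7, Havcr1 rose in F by 2.95 ± 0.47 and in LF by 2.27 ± 0.47 (limma adjusted p = 0.000666 and 0.00434), where Nupr1 was at -0.19 and -0.24. Without a call, Havcr1 was at 0.71 in FL and 0.15 in L, where Nupr1 was at -1.90 and -0.87. Beside the calls over strains at day 7, 5 of 9 loop and distal, 5 of 8 collecting duct, 2 of 10 proximal tubule and 2 of 6 macrophage markers fell. Of the other cell type lists at day 7, 1 of 5 podocyte and 1 of 2 endothelial markers fell, 1 of 5 fibroblast, pericyte and muscle and 1 of 3 red cell markers rose, and 0 of 5 T and B cell markers were called, with 1 at an unadjusted p under 0.05. Beside the calls in LF at day 7, Fcgr3a and Adgre1 of the macrophages fell by 1.34 ± 0.27 and 0.92 ± 0.22, and Slc5a2, the glucose carrier of the proximal tubule, fell by 0.73 ± 0.14 (limma adjusted p = 0.00292, 0.0139 and 0.00259). The part of these markers and injury genes in the values of the members and of the other stress response genes was not tested.

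Among the genes called in the FL contrasts outside the members, chosen after their values were seen, 3 are genes of the circadian clock or its output. Dbp, Per3 and Tef were lower in FL at day 7 than at day 0, with log2 differences of -1.21, -0.82 and -0.81 (limma adjusted p = 0.00177, 0.00115 and 0.013), and differed between FL and F at day 0 by 0.17, 0.12 and 0.22, without a call. Dnajb12, a co-chaperone of the endoplasmic reticulum membrane, was at -2.61 in FL minus F at day 0 and at 2.55 and 2.69 in FL at days 7 and 10 (limma adjusted p = 2.57e-08, 4.75e-08 and 1.05e-08). Whether these move with the same property of the FL day 0 arrays as Asns and Atf5 was not tested.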

How the data were processed

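Exon arrays read kidney RNA of male rats, 48 arrays sorted into groups by the strain and day in the labels. The deposited table holds log2 intensities, 1 for each probe set and array, made by the authors with RMA. The submitters' processing notes give the tools, RMA and limma, but no version. RMA settings and filters were not given there. The members and lists were chosen with earlier results of these data known.

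Of 92401 probe sets 85406 had 1 gene symbol in the platform annotation and were used, 1803 had several and 5192 none. Symbols were updated through the RefSeq gene table of GRCr8 (6113 of 8016 current, 1876 updated, 27 kept). Probe sets of a gene were joined by Tukey median polish, leaving 7997 genes (median 9 probe sets each).

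Gene values were fitted with limma 3.58.1 (R 4.3.3) in 1 model with 12 group means and 36 residual degrees of freedom, with eBayes. Adjustment followed Benjamini-Hochberg over all genes of a comparison; calls needed an adjusted p under 0.05. The interaction is an F test of 6 contrasts. Errors and p-values reflect array-to-array spread alone, which may be technical. Tested on simulated data for FL day 7 minus day 0 over 7997 genes, 93% of 200 genes with a log2 change of 1 were recovered, with 5 false calls. The simulated errors were independent between genes, without the brightness or replicate number that arrays share. The data gave 12 calls in that contrast. Nupr1 at 1.04 for FL minus F at day 0 and Ddit4 at 0.96 in FL at day 10 were not called. The share recovered thus does not carry over to uncalled genes here. The number of arrays limits the precision.

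Named genes are the members, from each list up to 4 genes with the smallest adjusted p among those called at day 7 or day 10 over strains, and the genes most alike within groups (3 or more probe sets). Herpud1, Slc7a1, Gpt2, Slc6a9, Sgk1, Pdia4, Fcgr3a, Adgre1, Slc5a2, Tagln, Dbp, Per3, Tef and Dnajb12 were named after their values were seen. Of the cell type marker lists and the injury list, those called or that bear on the FL contrasts are given. Arrays with the same replicate number share the start of their array file names in the labels, which was read as 1 array run. The model behind the printed values has no term for it, and the number as a block is an alternative. The mean correlation of array deviations was 0.0948 for 264 same-number pairs (112 over 0.1, lowest -0.301), against -0.0316 for 792 others. Alternatives were the number as a block, quantile normalization, the mean of probe sets, leaving out the dimmest 33.3% of genes, a fit of only the compared groups, and leaving out arrays, replicate numbers or strains. Figures were drawn with matplotlib 3.10.9, and promoters were read with pandas 2.3.3.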

Additional observations from a re-analysis of the deposited data

Results flagged for a closer look

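In 6 of 96 tests of 1 gene in 1 group, 1 array lay far from the other 3, and chance alone gives about 1 in 20. Atf5 in FL at day 0 had replicate 4 at 5.92, with the others at 6.45 to 6.56. Atf4 had replicate 4 at 8.22 in FL at day 7 (others 8.47 to 8.51) and at 7.73 in F at day 10 (others 8.39 to 8.51). Nupr1 had replicate 4 at 6.58 in FL at day 10 (others 7.09 to 7.12), and Ddit3 had replicate 4 at 5.80 in LF at day 0 (others 6.02 to 6.05). Atf5 in F at day 10 had replicate 3 at 5.37 (others 5.70 to 5.72). In each of the 6 the far array was the lowest, and in 5 of them it was replicate 4.

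Asns at day 7 was below day 0 on every FL array and above day 0 on every F array, with log2 differences of -1.02 in FL and 0.34 in F. That difference between the strains was not tested on its own, since the gene was chosen by these values. Ndrg1 had day responses that differed among the strains (limma F test of 6 contrasts, adjusted p = 0.000563), with its differences from day 0 largest in LF.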

How the results depend on the processing

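Under the alternatives listed with the methods the log2 differences of the members moved by less than the spread between arrays, with 4 exceptions. Asns as a mean over strains was at 0.042 (day 7) and 0.249 (day 10) without strain FL, against -0.225 and -0.01. Nupr1 at day 7 was at -0.432 without FL, against -0.80. Asns for FL minus F at day 0 ran from 0.852 to 1.286 when arrays were left out, the upper value without replicate 4. Trib3 gave no value without the dimmest genes. Other comparisons were set in place of FL minus F at day 0 after the values were seen. With FL minus F at day 7 Asns turned to -0.329, and Nupr1 was at -0.677, Atf5 at 0.079, Atf4 at -0.194, Ddit3 at -0.323, Ddit4 at -0.25 and Trib3 at 0.372. With FL minus F at day 10 Asns was at 0.028, Nupr1 at 0.151, Atf5 at 0.19 and Ddit4 at 0.199. With FL minus L at day 0 Nupr1 was at 0.269, Ddit4 at -0.221 and Trib3 at 0.337, and with FL minus LF Nupr1 was at 0.398, Ddit4 at -0.001, Ddit3 at -0.286 and Psat1 at 0.513. The gap of FL over F in Asns, Atf5 and Nupr1 was thus one of day 0, and those of Nupr1 and Ddit4 were smaller against L and LF.

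With the replicate block, the calls among the 97 other stress response genes were 15 at day 7, 7 at day 10, 1 for FL day 7, 11 for LF day 7 and 1 for F minus L, and changed in no other comparison by over 1.5 times. Calls over all genes with the block were 894 at day 7, 52 in F at day 10, 19 and 4 in FL at days 7 and 10, 1 in L at day 10, 683 in LF at day 7, 11 for FL minus F and 28 for the interaction, against 398, 30, 12, 2, 0, 195, 6 and 16. Quantile normalization gave 8 other genes at each of days 7 and 10, 10 for LF day 7, 3 for F minus L and 2 for LF minus L. Over all genes it gave 603 at day 7, 365 at day 10, 2 for day 10 minus day 7, 122 and 75 in F, 8 in FL at day 10, 3 in L at day 10, 340 and 145 in LF, 238 for F minus L, 11 for FL minus F, 42 for LF minus L and 32 for the interaction, where the deposited values gave 398, 184, 6, 55, 30, 2, 0, 195, 83, 108, 6, 20 and 16. The mean of probe sets gave 1 other gene for F day 7, and 12 genes in all for day 10 minus day 7 and 6 for FL day 10. Without the dimmest genes there were 7 other genes at day 10 and 1 for FL day 7, and 12 genes in all for day 10 minus day 7 and 4 for FL day 10. The fit on the compared groups alone gave 7 other genes at day 7 and 1 for LF day 7, and in all 0 genes for day 10 minus day 7, 16 for F day 10, 2 and 1 in FL, 66 for LF day 7, 71 for F minus L, 1 for FL minus F and 11 for LF minus L.

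Without strain F there were 2 other genes at day 7, 2 at day 10 and 5 for day 10 minus day 7 (207, 82 and 150 genes in all). Without LF there were 0 and 1 (66, 74 and 0 in all), and without L the counts in all were 244 at day 7 and 0 for day 10 minus day 7. Leaving out arrays or a replicate number moved the other genes called between 1 and 9 at day 7, 1 and 7 at day 10, 1 and 5 for LF day 7, 1 and 2 for LF day 10, 0 and 1 for FL day 7 and for F minus L, 1 and 2 for LF minus L, and 0 and 1 for the interaction. Over all genes the ranges were 71 to 674 at day 7 (lowest without replicate 2, highest without L day 0 replicate 4), 76 to 220 at day 10, 4 to 15 for FL day 7, 1 to 9 for FL day 10, 3 to 8 for FL minus F, 0 to 55 for day 10 minus day 7, 16 to 48 and 5 to 28 for days 7 and 10 in F, 0 to 3 and 0 to 2 in L, 23 to 403 and 25 to 77 in LF, 43 to 114 for F minus L, 9 to 24 for LF minus L and 0 to 24 for the interaction. The median r of member pairs was -0.0115 after quantile normalization, 0.0482 with the replicate block and 0.0845 without the 4 FL day 0 arrays, which was chosen after seeing the data. The cause of these changes was not tested.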
